A study of Homo sapiens with 8 samples.

Results

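The genes described here are those of the Wnt and Norrin pathway in hCMEC/D3 cells, which derive from human brain microvessels, were immortalised and serve to model the blood-brain barrier in the dish. They were chosen by symbol: every WNT ligand, FZD receptor, DKK and SFRP inhibitor in the table, and a set of named co-receptors, adaptors, transcription factors and feedback genes, 61 of the 23346 listed genes in all. Polyadenylated RNA of 8 replicate samples was sequenced. All 8 carry the same labels, with no treatment, time or passage, so no conditions were compared, and the labels do not say whether the replicates were separate cultures. Any p-value below therefore measures only the spread between these samples, which may be technical.

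Wnt proteins are lipid-modified in the producing cell and bind frizzled receptors together with LRP5 or LRP6 on the receiving cell. Dishevelled is then recruited, the complex of AXIN1, APC and GSK3B that marks beta-catenin for destruction is held back, and beta-catenin acts with TCF and LEF factors on target genes. In brain and retinal endothelium the same branch is started by WNT7A and WNT7B through the GPR124 and RECK receptors, or by Norrin (NDP), which is unrelated in sequence to Wnt and acts on FZD4 with LRP5 and TSPAN12. The branch is known for the formation and upkeep of the blood-brain barrier.

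Levels are given in CPM, counts per unit of library size after TMM scaling (trimmed mean of M-values), and, where genes are compared with each other, in RPKM, which is CPM per kilobase of the canonical transcript. Total counts ran from 69388544 to 90205244 per library. All counts were even, so 1 read pair appears to stand for 2 counts, and a count of 0 allowed up to 0.0665 to 0.0880 CPM in a single library (3 read pairs, for counting error only). The 8 endothelial markers, PECAM1, CDH5, VWF, TEK, TIE1, KDR, ENG and ERG, were all detected, with summed levels from 2188 to 4050 CPM. The astrocyte, microglia and epithelial markers had 0 of 6, 0 of 5 and 0 of 5 detected, and each of these lists summed to at most 2.56 CPM in any library. Fibroblast markers had 2 of 6 detected (COL1A1 and COL1A2; list sum 142 to 211 CPM), with DCN without reads in 7 libraries. Pericyte or smooth muscle markers had 4 of 7 detected (45.4 to 70.5 CPM), and neuron markers 3 of 5 (SYT1, MAP2 and TUBB3; 97.2 to 135 CPM). Replicates 2, 7 and 8 differed from the other 5 in how gene levels depended on transcript length: the slope of their deviations from the gene means per doubling of length was -0.22, -0.11 and -0.34 (log2), against 0.09 to 0.15 in the others.

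Detection here means that each of the 8 libraries reached 1 CPM. Of the 61 pathway genes, 28 were detected (45.9%), against 51.3% of all listed genes, so as a set they were about as often detected as any. The share detected differed between the pathway's roles. Among genes of the receiving cell, 7 of 10 frizzled receptors, 2 of 2 LRP co-receptors, 3 of 3 dishevelled adaptors, 3 of 3 destruction complex genes and 3 of 4 TCF and LEF factors were detected. Among ligands, the count was 3 of 19 for WNT genes and 0 of 1 for NDP. Of the secreted inhibitors 2 of 8 were detected, and of the receptor co-activators 2 of 3. The Wnt acylation gene PORCN, which acts in the producing cell, was detected. Of the feedback genes, among which LGR4 was counted, 2 of 7 were detected. These act in the receiving cell too, so detection did not divide cleanly between receiving and producing cells. Just above the threshold lay FZD3 and WNT2B, with lowest values of 1.14 and 1.44 CPM, and just below it WNT3 (lowest value 0.931 CPM) and SFRP1 (0.851 CPM). An undetected gene is one that missed this level in some library, and reads of most of them were still seen. In bulk RNA, fewer cells with a transcript and less of it per cell cannot be told apart.

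**Figure D1:**
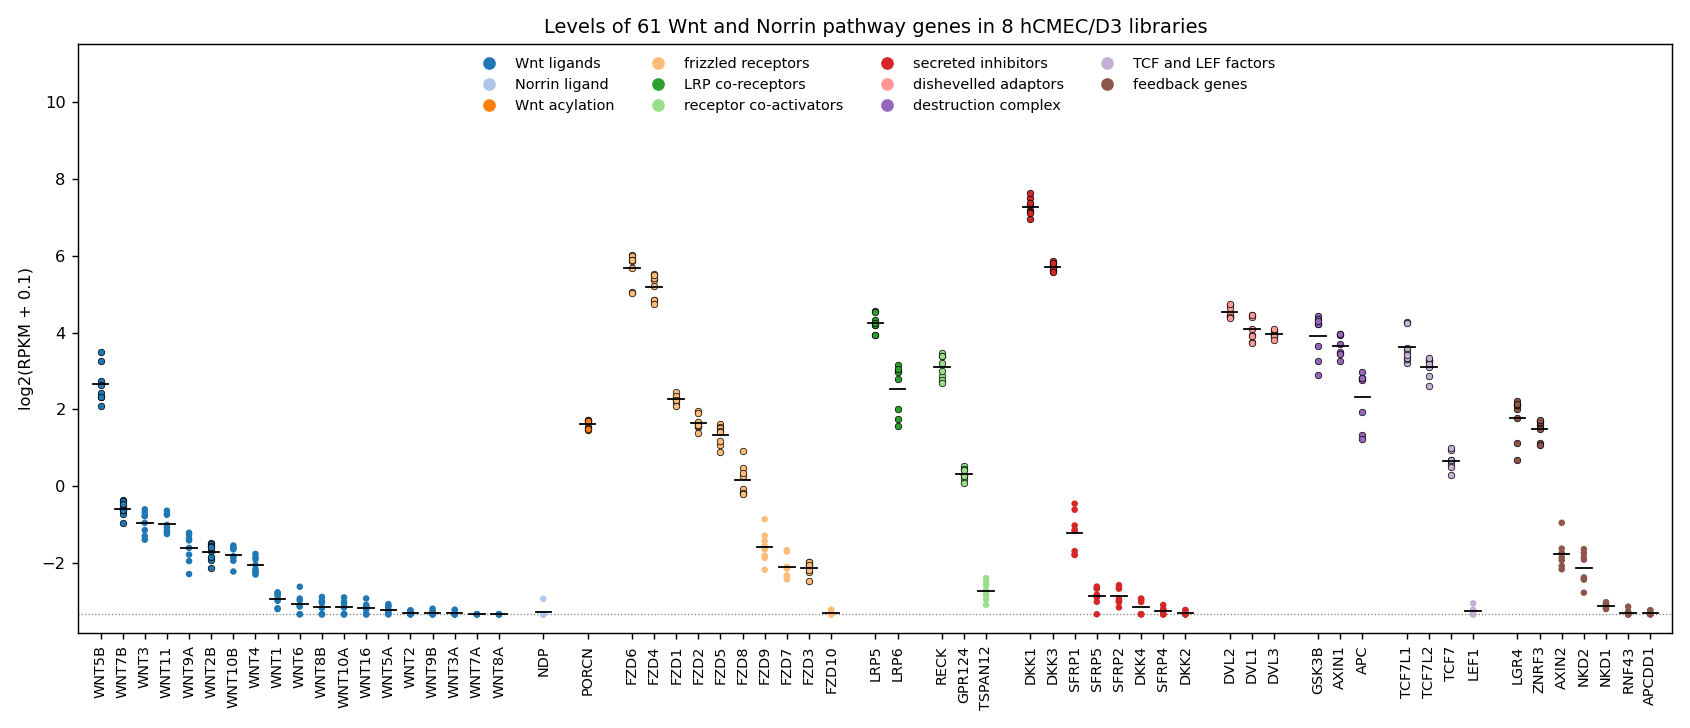
Levels of the 61 genes by role, as log2(RPKM + 0.1) on the vertical axis; each point is 1 of 8 libraries, bars are means, points with a black edge belong to detected genes, and the dotted line marks no reads. DKK1 stood highest at a mean of 156 RPKM, FZD6, DKK3 and FZD4 followed at 52.6, 52.5 and 37.04 RPKM, and WNT7A, WNT8A, NDP, LEF1, RNF43 and APCDD1 lay at or next to the line.

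The stretches in front of the members' transcription starts were searched for the TCF and LEF recognition word CTTTGAA and its 3 variants that end in AT, TA or TT instead of AA, on both strands, since such words are how these factors find target genes. Promoter sequences from RefSeq (GRCh38.p14 table) were found for 43 of the 61 genes, in 52 entries, and the 250 bases before each start were searched. A word occurred in 4 of the 52 entries (7.69%), against 11.96% of 35116 entries of all genes. The 4 genes, DKK1, RECK, TCF7 and TCF7L2, were among the 20 detected genes with an entry, and 0 of the 23 undetected genes with an entry had one. The share with a word was not computed for all detected and all undetected genes, so no link to detection can be read from this. The LEF1 window (chr4:109087458-109087707) lies inside the gene, so the stretch before its outermost start at 109090112 was not searched. A word is a match of letters only and no evidence of binding, and windows without one say nothing of the factors. The 4 sequences are printed because DKK1, a known Wnt target as well as an inhibitor, was the most abundant member and carries the word 2 times. They are written 5′ to 3′ on the gene's strand, all on the plus strand, with the words in capitals, and their positions are those of the exact match on GRCh37. The DKK1 stretch (chr10:54073791-54074040) overlaps an exon of the noncoding gene PRKG1-AS1. The RECK stretch is chr9:36036660-36036909. Those of TCF7 (chr5:133459059-133459308) and TCF7L2 (chr10:114886142-114886391) precede internal, alternative starts of these genes.
DKK1: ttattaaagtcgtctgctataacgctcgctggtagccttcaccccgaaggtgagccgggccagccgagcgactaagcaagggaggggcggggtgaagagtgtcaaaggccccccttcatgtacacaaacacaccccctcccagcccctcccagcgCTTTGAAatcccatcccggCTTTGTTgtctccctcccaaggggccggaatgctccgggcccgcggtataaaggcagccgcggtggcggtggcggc
RECK: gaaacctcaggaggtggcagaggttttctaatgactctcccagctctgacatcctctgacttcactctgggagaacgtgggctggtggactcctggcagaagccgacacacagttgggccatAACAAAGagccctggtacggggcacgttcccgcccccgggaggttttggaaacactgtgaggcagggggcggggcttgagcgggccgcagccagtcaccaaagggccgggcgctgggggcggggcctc
TCF7: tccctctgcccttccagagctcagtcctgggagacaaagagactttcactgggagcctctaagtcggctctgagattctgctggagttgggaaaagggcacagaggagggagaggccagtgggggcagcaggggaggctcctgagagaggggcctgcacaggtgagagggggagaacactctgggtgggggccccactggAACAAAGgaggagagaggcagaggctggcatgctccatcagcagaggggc
TCF7L2: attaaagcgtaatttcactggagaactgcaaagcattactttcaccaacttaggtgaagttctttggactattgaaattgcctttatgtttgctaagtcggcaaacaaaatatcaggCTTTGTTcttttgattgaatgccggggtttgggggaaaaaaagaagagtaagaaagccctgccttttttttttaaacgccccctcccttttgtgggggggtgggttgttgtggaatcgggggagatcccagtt
In DKK1 the words lie 95 and 76 bases before the start, CTTTGAA first, both read on the gene's strand. In RECK the word is on the opposite strand, printed as AACAAAG, 128 bases before the start, and TCF7 has the same letters 50 bases before its start. In TCF7L2 the word CTTTGTT lies 133 bases before the internal start.

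Ligands were sparse, and WNT5B, which is best known for signalling apart from beta-catenin, made up most of what there was. Per length, WNT5B held 72.6% ± 6.54 of the summed RPKM of the 19 WNT genes (SD, n = 8). WNT5B (chromosome 12, 1726222 to 1756378, 5 exons) had 11.0, 11.9, 14.7, 11.0, 21.1, 9.38, 24.9 and 13.6 CPM in replicates 1 to 8. Replicates 5 and 7 stood above the other 6, whose values reached at most 14.7 CPM. WNT7B (chromosome 22, 46316248 to 46373008, 4 exons), the ligand of the GPR124 and RECK receptor complex, was detected at a low level, with 1.66 CPM as the lowest value, 2.25 as the median and 2.70 as the highest. Its relative WNT7A, which uses the same receptors, had no reads in any of the 8 libraries, which allows up to 0.00964 CPM over all libraries together by the same limit of 3 read pairs. The upper end of the exact Poisson 95% interval, used below for genes with reads, is 0.0118 CPM for WNT7A. WNT2B, the third detected ligand, had 2.33 ± 0.518 CPM and, on a transcript of 11130 nt, 0.209 ± 0.0465 RPKM, below the undetected WNT3 and WNT11 (0.429 ± 0.104 and 0.419 ± 0.0877 RPKM, n = 8). The other 16 WNT genes were not detected, with means from 0 for WNT7A and WNT8A to 1.41 CPM for WNT3. WNT5A, the close paralog of WNT5B, had 15 read pairs over all libraries (0.0482 CPM, exact Poisson 95% interval 0.0270 to 0.0795). PORCN, the acyltransferase without which Wnt proteins are not secreted, was detected at 5.53 ± 0.471 CPM, with 4.95 as the lowest and 6.03 as the highest value, and its carrier WLS had 129 ± 7.44 CPM.

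Norrin itself was close to absent from the counts. NDP (chromosome X, 43808024 to 43832921) had 2 read pairs, both in replicate 4, and no reads in the other 7 libraries. TSPAN12 (chromosome 7), the tetraspanin that strengthens Norrin signalling through FZD4, had 43 read pairs over all 8 libraries, with 0.0487 CPM as the lowest, and 0.237 CPM as the highest value. Over all libraries this was 0.138 CPM (exact Poisson 95% interval 0.09996 to 0.186). The receptor FZD4, in contrast, was among the higher genes of the line.

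FZD6 and FZD4 dominated the frizzled family. FZD6 accounted for 51.3% ± 4.21 and FZD4 for 36.5% ± 2.66 of the family's summed RPKM (SD, n = 8), and the next, FZD1, for 4.82% ± 1.02. FZD4 (chromosome 11, 86656717 to 86666440, 2 exons), the receptor of Norrin, had 198 CPM at the lowest, 289 at the median and 341 at the highest. FZD6 (chromosome 8, 104310661 to 104345094, 7 exons), known for planar cell polarity, had 120 CPM at the lowest, 218 at the median and 241 at the highest. For both genes the values of replicates 2, 7 and 8 lay below all the others. FZD6 had 52.6 ± 12.9 and FZD4 37.04 ± 8.08 RPKM. By mean log2(RPKM + 0.1), they were at or above 86.9% and 81.1% of the detected genes with a length. Which of them was higher depended on the scale. The log2 ratio of FZD4 to FZD6 was -0.49 ± 0.21 per length, negative in 8 of 8 libraries, but 0.49 on CPM and 0.10 ± 0.24 on the authors' normalised values, where flipping signs exactly, two-sided, gave a permutation p of 0.328 (adjusted p = 0.328, n = 8). FZD4 exceeded FZD1 by 2.92 ± 0.31 (log2, n = 8) per length and the RPKM ranges of these genes did not overlap.

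The remaining frizzled receptors were lower by an order of levels that was partly resolved. FZD1, FZD2, FZD5 and FZD8 had 4.72 ± 0.369, 3.08 ± 0.420, 2.47 ± 0.435 and 1.07 ± 0.352 RPKM (SD, n = 8). The ranges of FZD1 and FZD2 did not overlap, while those of FZD2 with FZD5 and of FZD5 with FZD8 did. FZD3 followed at 0.133 ± 0.0251 RPKM and 1.83 ± 0.345 CPM, on a transcript of 13770 nt. FZD7, FZD9 and FZD10 were not detected, at means of 0.635, 0.584 and 0.00978 CPM. FZD9 overlaps other listed genes, and the counting's use of strand is not given in the sources used here.

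Both co-receptors that pair with frizzled were detected, and LRP5, the partner in Norrin signalling, was the higher. LRP5 (chromosome 11, 68080108 to 68216743, 23 exons) had 78.6 CPM at the lowest, 96.1 at the median and 121 at the highest. LRP6 (chromosome 12, 12268961 to 12419811, 23 exons) had 90.7, 33.6, 80.6, 80.0, 69.9, 84.7, 40.0 and 29.6 CPM in replicates 1 to 8. Replicates 2, 7 and 8 were thus below the other 5 for LRP6, while 2 and 8 were the highest for LRP5. The log2 ratio of LRP6 to LRP5 per length was -1.70 ± 0.83, between -0.94 (replicate 3) and -2.96 (replicate 8). On CPM it was -0.73, and LRP6 lay above LRP5 in replicate 3. The authors' normalised values come from conditional quantile normalisation, a method built to remove length and GC effects, and there it was -1.46 ± 0.16 (SD, n = 8).

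The co-activators of WNT7 signalling were present at unequal levels. RECK (chromosome 9, 36036910 to 36124452, 21 exons), a membrane-anchored protein that binds WNT7, had 28.03 CPM at the lowest, 37.4 at the median and 48.5 at the highest. GPR124 (chromosome 8, 37654401 to 37701504, also named ADGRA2), the adhesion receptor that works with it, had 6.69 CPM at the lowest, 7.88 at the median and 9.36 at the highest. Its SD between libraries was 0.16 on log2(CPM + 0.1) and 0.24 on the authors' normalised values. The medians over the 28 detected members were 0.27 and 0.18. GPR124 lay below RECK by a log2 ratio of -2.78 ± 0.25 per length (SD, n = 8), with ranges that did not overlap. It overlaps BRF2 in the table, so reads shared with BRF2 are uncertain.

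Among the secreted inhibitors, DKK1 and DKK3 were abundant and the others were low. DKK1 (chromosome 10, 54074041 to 54077417, 4 exons), which blocks Wnt signalling by binding LRP5 and LRP6, had 225 CPM at the lowest, 275 at the median and 356 at the highest. Its mean of 156 ± 24.2 RPKM (SD, n = 8) was the highest of the 61 genes. By mean log2(RPKM + 0.1), DKK1 was at or above 96.5% of the detected genes with a length. Replicates 5 and 7 had the highest DKK1 values, 327 and 356 CPM, as they had for WNT5B, but the other libraries reached 298 CPM. DKK3 (chromosome 11, 11984543 to 12030917, 7 exons), a divergent relative that is not an established ligand of LRP5 or LRP6, had 121 CPM at the lowest, 133 at the median and 145 at the highest, with an SD of 0.10 on the log2 scale. The log2 ratio of DKK1 to DKK3 was 1.56 ± 0.30 per length (SD, n = 8) and positive in 8 of 8 libraries. Together the 2 genes held 74.4% ± 3.85 and 25.4% ± 3.88 of the summed RPKM of the DKK and SFRP genes. SFRP1, which binds Wnt proteins directly, had a mean of 1.61 ± 0.741 CPM and ranged from 0.851 in replicate 1 to 2.82 in replicate 5. DKK2, DKK4, SFRP2, SFRP4 and SFRP5 had means of at most 0.0778 CPM.

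The cytoplasmic steps of the pathway were expressed throughout. The dishevelled genes DVL1, DVL2 and DVL3 had 17.3 ± 3.76, 23.0 ± 2.34 and 15.4 ± 0.966 RPKM (SD, n = 8). DVL1 (chromosome 1) ran from 43.6 CPM over a median of 53.1 to 72.8, and DVL2 (chromosome 17) from 62.1 over 65.4 to 79.3. DVL3 was below DVL2 by -0.57 ± 0.13 (log2) per length and by -0.32 ± 0.17 on the authors' normalised values, but above it by 0.25 on CPM. DVL1 was below DVL2 by -0.43 ± 0.19 per length and not on the authors' normalised values, where the ratio was 0.10 ± 0.11 (permutation by exact sign flips, two-sided, p = 0.0469 and adjusted p = 0.0527, n = 8). The order of the dishevelled genes was therefore not settled across scales.

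In the destruction complex, all 3 genes were detected and APC, a scaffold known as a tumour suppressor, had the largest SD of log2 CPM, though not of the authors' normalised values. APC (chromosome 5, 112043202 to 112181936, 16 exons) had 74.5, 25.9, 82.6, 72.5, 72.2, 74.3, 39.7 and 24.0 CPM in replicates 1 to 8. GSK3B (chromosome 3, 119540802 to 119813264, 11 exons), the kinase that phosphorylates beta-catenin, had 56.7 CPM at the lowest, 144 at the median and 165 at the highest. In both genes replicates 2, 7 and 8 lay below the other 5. AXIN1 (chromosome 16, 337440 to 402676, 11 exons), the limiting scaffold, went the other way: it ran from 35.3 over 44.3 to 57.8 CPM, with replicates 2, 7 and 8 above the other 5. Per length, GSK3B and AXIN1 had overlapping ranges (15.9 ± 5.39 and 12.7 ± 2.44 RPKM), and APC was lower at 5.44 ± 2.25 RPKM (SD, n = 8).

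Of the transcription factors, TCF7L1, which mainly represses, and TCF7L2 were detected at similar levels, and LEF1 was nearly without reads. TCF7L1 (chromosome 2, 85360583 to 85537511, 12 exons) had 27.0 CPM at the lowest, 33.0 at the median and 57.9 at the highest. TCF7L2 (chromosome 10, 114710009 to 114927436, 15 exons) had 24.3 CPM at the lowest, 37.4 at the median and 41.1 at the highest. Replicates 2 and 8 had the highest TCF7L1 and the lowest TCF7L2. The log2 ratio of TCF7L2 to TCF7L1 was -0.51 ± 0.65 per length (SD, n = 8), at -1.42 and -1.66 in replicates 2 and 8 and between -0.26 and -0.07 in the other 6. Without replicates 2 and 8 the mean was -0.16. On CPM it was -0.062 (adjusted exact permutation p = 0.734, n = 8), and on the authors' normalised values -0.53 ± 0.28. TCF7 (chromosome 5, 133450402 to 133483920) was lower, at 4.97 ± 0.825 CPM. LEF1 (chromosome 4, 108968701 to 109090112) had 6 read pairs over all libraries, 3 of them in replicate 5, and no reads in 4 libraries (0.0193 CPM, exact Poisson 95% interval 0.00707 to 0.0420). It overlaps the listed gene LOC641518, so reads shared with LOC641518 are uncertain, and the interval does not cover this.

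Of the 7 feedback genes, AXIN2, NKD1, NKD2, APCDD1 and RNF43, which are known as inhibitors of the pathway, were not detected. AXIN2 (chromosome 17, 63524683 to 63557740, 11 exons) had 0.851, 0.532, 0.760, 0.964, 1.79, 0.700, 0.852 and 0.591 CPM in replicates 1 to 8, so replicate 5 alone passed 1 CPM. The log2 ratio of AXIN1 to AXIN2 was 5.41 ± 0.50 per length (SD, n = 8). NKD1 and NKD2, which bind dishevelled, had 0.286 ± 0.0845 and 0.298 ± 0.141 CPM. APCDD1, a membrane inhibitor, had 2 read pairs in all, 1 each in replicates 1 and 5. RNF43, the ubiquitin ligase that removes frizzled from the surface, had 4 read pairs in all. RNF43 overlaps other listed genes, so shared reads are uncertain. Its paralog ZNRF3 (chromosome 22, 29279755 to 29453476, 9 exons) was detected, from 13.8 over a median of 20.03 to 21.9 CPM. LGR4 (chromosome 11, 27387508 to 27494334, 18 exons), the R-spondin receptor that holds these ligases back, was detected too, from 7.97 over 21.5 to 23.9 CPM, lowest in replicates 8 and 2. ZNRF3 and LGR4 overlapped in RPKM (2.76 ± 0.460 and 3.53 ± 1.14, SD, n = 8).

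**Figure D2:**
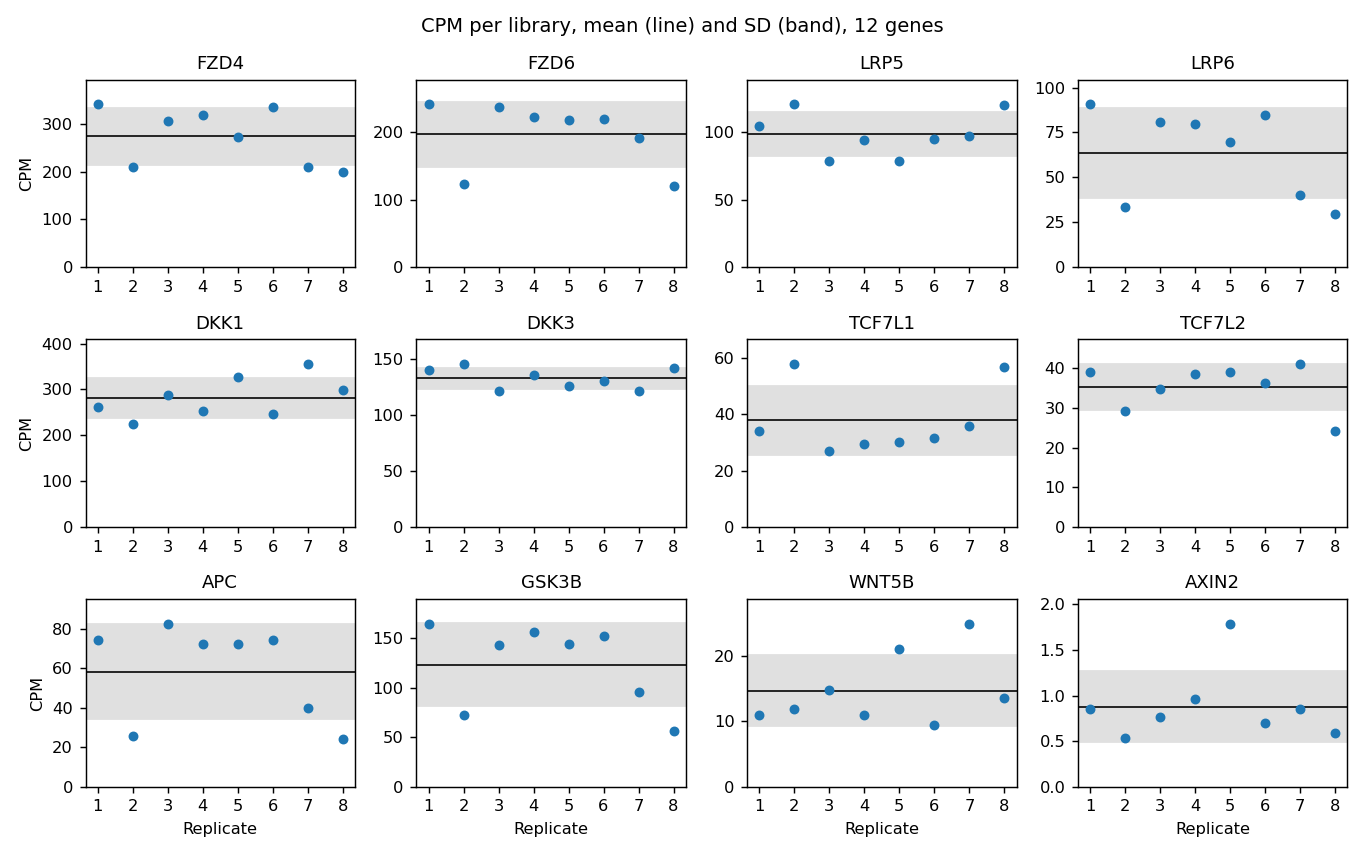
CPM (vertical axes, each starting at 0) of 12 genes in replicates 1 to 8 (horizontal axes), with the mean as a line and 1 SD as a band. LRP6, APC and GSK3B were lowest in replicates 2, 7 and 8, TCF7L1 was highest in replicates 2 and 8, WNT5B was highest in replicates 7 and 5, and AXIN2 passed 1 CPM in replicate 5 alone.

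The differences within 13 gene pairs were tested library by library on log2(RPKM + 0.1). In each of the 13 pairs all 8 libraries had the same sign, and the exact two-sided sign-flip permutation test gave p = 0.00781 and, adjusted over the 13 pairs, p = 0.00781 (n = 8) for each. This is the smallest p-value 8 libraries can give, so it does not rank the pairs. A length effect shared by all 8 libraries would also give 1 sign throughout, so the test does not settle which gene is higher. In 4 of them, TSPAN12 to FZD4 (-7.91), WNT5A to WNT5B (-5.87), TCF7L2 to LEF1 (6.36) and ZNRF3 to RNF43 (4.78), the lower gene had so few reads that the pseudocount set the size: with a pseudocount of 1 the ratios were -5.14, -2.85, 3.25 and 1.896. The ratio of AXIN1 to AXIN2 became 3.49 and that of GPR124 to RECK -2.14. In the 4 pairs and in AXIN1 to AXIN2, only 1 gene of the pair was detected, so the sign was largely given by the detection rule. The pair NKD1 and NKD2 was not tested, since neither gene was detected.

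**Figure D3:**
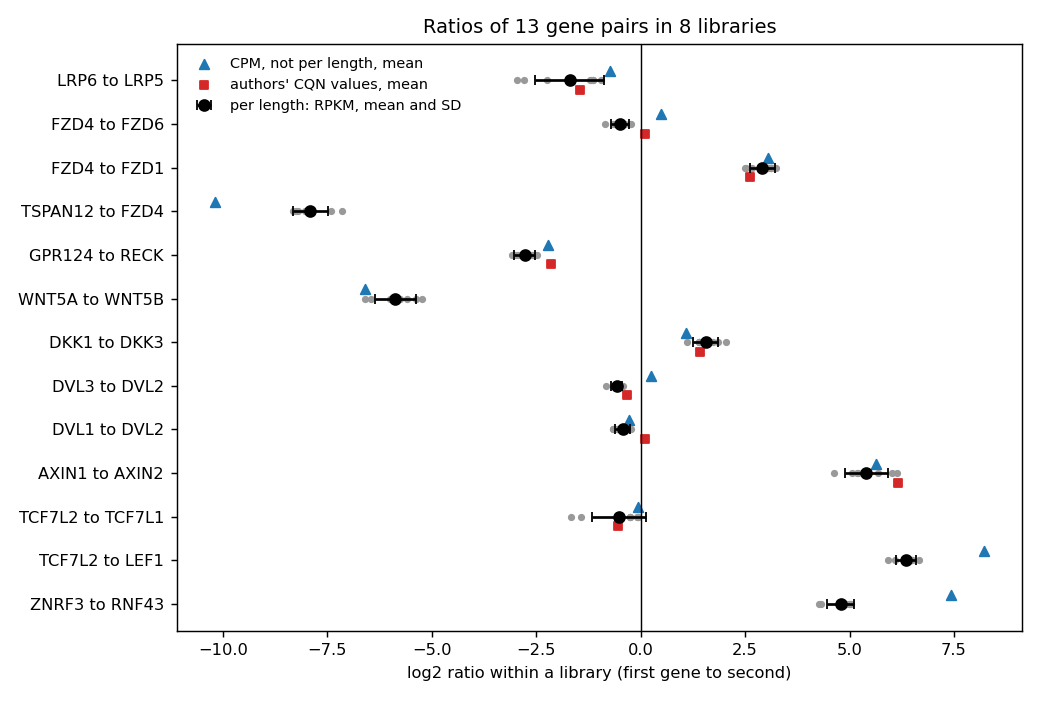
Log2 ratio of the first to the second gene of 13 pairs (horizontal axis); grey points are the 8 libraries and black points with bars are mean and SD per length, blue triangles are means on CPM, and red squares are means on the authors' normalised values where both genes have them. FZD4 to FZD6 and DVL3 to DVL2 lie on opposite sides of 0 per length and on CPM, and FZD4 to FZD6 and DVL1 to DVL2 do so per length and on the authors' values.

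Variation between libraries was compared with that of genes of like abundance with edgeR: each gene's deviance was tested against the dispersion trend of all 11980 detected genes (goodness of fit, upper tail). Of the 28 detected pathway genes 2 were called above the trend (7.14%), against 4.66% of all detected genes, a share near the background. They were APC (edgeR adjusted p = 0.00549) and LRP6 (edgeR adjusted p = 0.0263), and 4 of the 28 had an unadjusted p under 0.05, as had 1571 of the 11980 detected genes. For APC the call was lost without replicates 2 and 8 (edgeR adjusted p = 0.106). There LRP6 and WNT5B were called, 2 of 29 detected members, beside 2.75% of all detected genes. For LRP6 it was lost on leaving out replicate 1, 2, 6 or 7, with edgeR adjusted p-values of 0.0653, 0.0662, 0.0508 and 0.0698. Neither APC nor LRP6 was called without replicates 2, 7 and 8 (edgeR adjusted p = 1.00 for each after rounding). There WNT5B was called, 1 of 29 detected members, beside 2.43% of all detected genes, a share near the background.

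Replicates 2, 7 and 8, the libraries with negative length slopes, all lay below the other 5 in 11 of the 28 detected genes: APC, FZD3, FZD4, FZD5, FZD6, GSK3B, LGR4, LRP6, RECK, WNT2B and WNT7B. The same held for 27.3% of all detected genes. They all lay above the other 5 in 6 of the 28, AXIN1, DVL1, DVL2, FZD8, PORCN and TCF7L1, against 30.9% of all detected genes. The lowest value was that of replicate 8 for 13 of the 28 genes, against 31.1% of all detected genes, and the highest for 5 of the 28, against 36.0%. On the authors' normalised values, replicates 2, 7 and 8 lay below the others in 7 of the 28 (14.5% of all) and above them in 0 of the 28 (17.3% of all). Canonical transcripts ran from 3728 nt (FZD6) to 13770 nt (FZD3) for the 11 genes that were lower on CPM and from 1867 nt (PORCN) to 4050 nt (FZD8) for the 6 that were higher, so the lengths overlapped. FZD1 and ZNRF3, with 6894 and 6872 nt, were in neither set. The part of the length slope in these differences was not tested.

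The authors' values also changed which genes appeared variable. The SD between libraries was smaller on the authors' normalised values than on log2(CPM + 0.1) for 19 of the 28 genes, against 74.2% of all detected genes, with medians of 0.18 and 0.27 (log2) over the 28. The SD of LRP6 went from 0.66 to 0.15, that of APC from 0.74 to 0.19, that of GSK3B from 0.58 to 0.20 and that of FZD4 from 0.33 to 0.11. WNT5B kept its spread, at 0.49 and 0.53, with replicates 5 and 7 highest on both scales (5.53 and 5.56 on the authors' values, against 4.25 to 5.08 in the others). The SD of the low gene FZD3 was larger on the authors' values, 0.63 against 0.29.

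**Figure D4:**
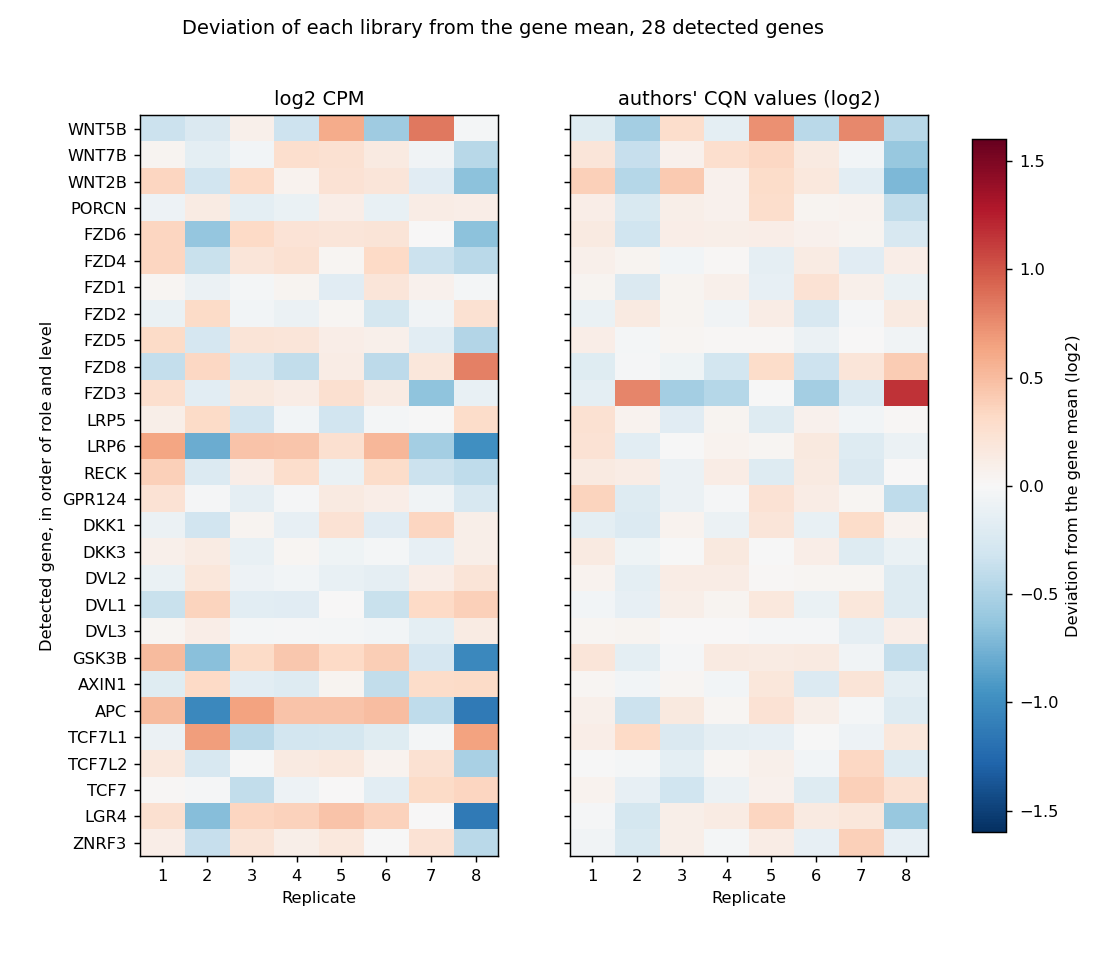
Deviation of each library (columns, replicates 1 to 8) from the gene mean (log2, colour scale) for the 28 detected genes (rows), on log2 CPM at left and on the authors' normalised values at right. Replicates 2 and 8 are the deepest blue for APC, LRP6 and GSK3B at left and pale at right, while WNT5B is red in replicates 5 and 7 in both panels.

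Other genes of the pathway, from lists beside the 61, also differed between lists in the share detected, which was 51.3% over all listed genes. For beta-catenin and its destruction complex 9 of 9 listed genes were detected, led by beta-catenin itself, CTNNB1, at 431 ± 53.2 CPM (SD, n = 8). Of these, 0 of 9 were above the variation trend, beside 4.66% of all detected genes, so the 0 sets the list apart from no other genes. Of the nuclear co-factors 9 of 10 were detected, BCL9L highest at 102 ± 6.67 CPM, and PYGO1 was not. Of a mixed list of ligand export genes, co-factors and receptors 3 of 13 were detected. They were WLS, which acts in the producing cell, and the DKK1 receptors KREMEN1 and KREMEN2 (3.94 ± 0.536 and 3.42 ± 1.04 CPM). The 10 others, RSPO1 to RSPO4, the receptors LGR5 and LGR6, NOTUM, WIF1, FRZB and SOST, had means of at most 1.16 CPM, that of RSPO3. The median level was 108 CPM over the beta-catenin list, 38.5 over the nuclear list and 0.197 over the mixed list, beside 1.97 over all listed genes.

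Genes known to follow Wnt signalling in brain endothelium were detected in 8 of 13 cases, beside 51.3% of all listed genes, with a median of 3.65 CPM over the list. The glucose carrier SLC2A1 had 133 ± 17.5 CPM, the efflux pump ABCB1 108 ± 28.5 CPM and the SOX factors SOX7 and SOX17 47.7 ± 9.13 and 31.4 ± 7.55 CPM (SD, n = 8). CLDN5 and SOX18, 2 of the 8, were above the variation trend (edgeR adjusted p = 7.40e-04 and 5.71e-05), as were 4.66% of all detected genes. Both were highest in replicates 2 and 8. CLDN5 had 237 and 252 CPM there and 71.5 to 94.7 in the others. SOX18 had 50.7 and 64.8 CPM there and 10.8 to 38.0 in the others. The lipid transporter MFSD2A was low, at 3.65 ± 0.639 CPM. PLVAP, a gene of leaky vessels that Wnt signalling lowers, was also low, at 1.69 ± 0.324 CPM. FOXF2, FOXQ1, TNFRSF19 and CLDN3 were not detected, at means from 0.0479 CPM for TNFRSF19 to 0.252 CPM for FOXQ1.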

How the data were processed

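Polyadenylated RNA from 8 hCMEC/D3 samples was made into TruSeq v2 libraries, per the labels' protocols. The submitters' processing notes name hg19, CASAVA 1.9, TopHat2 2.0.6 and HTSeq. The annotation and the strand setting are not given in the sources used here. The authors deposited raw counts per gene and, on a log2 scale judged from the values, conditional quantile normalised (CQN) values, per the file headers. All 186768 counts were even. CPM with TMM factors, the intercept-only model and the goodness-of-fit test (upper tail, Benjamini-Hochberg adjustment over all detected genes) were computed with edgeR 4.0.16 in R 4.3.3, and alternatives with DESeq2 1.42.0. The detection minimum was 1 CPM in all 8 libraries, the pseudocount 0.1 and the adjusted p threshold 0.05. Lengths came from canonical transcripts of GENCODE lifted to GRCh37, found for 61 of 61 members and 96.8% of detected genes. Starts are printed 1-based, since 4527 table starts lay 1 below the annotation and 623 equalled it. Pairs were tested by exact sign flips over 256 patterns. Both tests were first tested on simulated data. AMER1, 1 gene of the lists, was not analysed here, and the values of 1 other listed gene are not reported here. No value column was left unmatched.

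Total counts of 69388544 to 90205244 per library make counting error small for genes with many reads. It is larger for the low detected members. FZD3, for example, had 94 to 166 counts per library, at 2 counts per read pair. The part of counting error in the spread of such genes was not computed. Values by library, or lowest, median and highest, were to be given for the 2 highest detected members of each role, those above the variation trend, the Norrin and GPR124 complex genes, AXIN2 and LEF1, and the others by range or mean. Alternatives covered scaling, detection minimum, pseudocount, scale and left-out replicates. The members and lists were chosen with earlier results of these data known.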

Additional observations from a re-analysis of the deposited data

How the results depend on the processing

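The number of detected members, 28, lay between 28 and 29 without any single replicate, was 29 without replicates 2 and 8 and 29 without replicates 2, 7 and 8, and was lowest at 23 with an RPKM minimum of 1 and highest at 38 with a minimum of 10 counts. The number above the variation trend, 2, was 1 to 2 without single replicates, beside 3.15% to 4.08% of all detected genes. It was 1 of 29 without replicates 2, 7 and 8 (WNT5B), beside 2.43% of all detected genes. It was 7 with the DESeq2 fitted trend, which called 2811 of all genes (23.5%) against 558. The cause was not tested. LRP6 and APC both had an adjusted p of 1.00 without replicates 2, 7 and 8. For the pair ratios, CPM in place of RPKM turned FZD4 to FZD6 to 0.49 and DVL3 to DVL2 to 0.25 and took TCF7L2 to TCF7L1 to -0.062 (adjusted permutation p = 0.734). The CQN values turned FZD4 to FZD6 to 0.10 and DVL1 to DVL2 to 0.10. The 4 reversals and the weakened ratio appeared on a change of scale, and their cause was not tested. DVL1 to DVL2 kept its sign on CPM, at -0.29. The other 160 alternative values of the pairs kept their sign and their side of the threshold. Among these, only the values on CPM and CQN could have turned. Per length all 8 libraries had the same sign in every pair. Leaving out replicates, rescaling the libraries or changing the pseudocount therefore had to keep the sign, so those values are no evidence that the ratios are stable. The alternatives without replicates 2 and 8, and without 2, 7 and 8, were chosen after seeing the data. DESeq2 size factors moved no detected member's mean CPM by more than 1 SD. No paired analysis was possible because all samples form 1 group. Members with few reads are limited by depth: a count of 0 allowed up to 0.0880 CPM in the shallowest library.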

Other observations

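Receptors and polarity genes of Wnt signalling apart from beta-catenin were present in the line beside FZD6. PTK7, RYK and VANGL1, which act in cell polarity or as alternative Wnt receptors, had 142 ± 19.8, 75.8 ± 9.17 and 77.4 ± 14.0 CPM (SD, n = 8), and 8 of 12 genes of this list were detected, beside 51.3% of all listed genes. Of these 8, 2 were above the variation trend, beside 4.66% of all detected genes. ROR1, a receptor of WNT5 proteins, was above the variation trend (edgeR adjusted p = 2.84e-08), with 4.68, 10.2 and 2.27 CPM in replicates 2, 7 and 8 and 20.7 to 23.9 CPM in the other 5. DAAM1, a formin that binds dishevelled, was also above the trend (edgeR adjusted p = 0.00302) and lowest in replicates 2 and 8. ROR2, VANGL2, CELSR1 and PRICKLE2 were not detected.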
